A study of Mus musculus with 4 samples.

Results

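Cyclins, cyclin-dependent kinases (CDKs), the proteins that hold these kinases back, and the E2F and pocket proteins downstream of them are the subject of these results. The 43 genes were taken by symbol from a named list, and all 43 were found among the 22396 named genes of the authors' deposited table. They comprise 23 activators of cell cycle progression, 7 inhibitors, and 13 E2F, DP and pocket proteins. The study used low-input ribosome profiling, which sequences the mRNA fragments that ribosomes protect from nuclease. Its samples were testis cells positive for THY1, a surface marker used to enrich spermatogonial stem and progenitor cells, taken from mice that lack Ddx20 and from their littermates. There were 2 control samples and 2 Ddx20 knockout samples, each of about 1000 cells. Age, allele design and any Cre driver are not stated in the labels used. Since no label ties replicates to different animals or pools, p-values measure the spread between these samples, which may be technical.

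The deposited table holds 1 comparison and no column per sample. Whole reads of 4 libraries were recovered from its mean values, and they are called A, B, C and D here. A and B lie on the negative side of the authors' fold change, and C and D on the positive side. No library carries a sample name or genotype, and the sign convention is not stated in the sources used here. A gene called lower therefore had fewer normalised reads in C and D than in A and B, with an adjusted p under 0.05 in the authors' deposited table. Which side is the knockout was not read from any value.

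A cell enters a division cycle when D cyclins with CDK4 or CDK6, and then E cyclins with CDK2, phosphorylate the pocket proteins RB1, p107 and p130. Pocket proteins otherwise hold E2F transcription factors in check, so their phosphorylation releases E2F target genes for DNA replication. Cyclin A and B complexes with CDK1 and CDK2, the CDC25 phosphatases and the kinases PLK1 and AURKA then drive S phase and mitosis, while WEE1 and the INK4 and CIP/KIP proteins restrain CDKs. Male germ cells of the fetal testis, the prospermatogonia, arrest in a quiescent state and re-enter the cycle around birth to found the spermatogonial stem cell pool.

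Ddx20, the targeted gene, encodes a DEAD-box helicase of the SMN complex. It had 167 and 173 normalised reads in A and B and 42.6 and 50.8 in C and D, and its log2 fold change in the authors' deposited table was -1.83 ± 0.24 (SE, adjusted p = 4.07e-13). The 2 sides did not overlap. With a mean of 108 normalised reads, Ddx20 stood in the highest of 4 equal bins of tested genes by mean. C and D lay below A and B in 3230 of the 4337 genes there. The libraries held 941027, 789579, 283500 and 222142 reads in A to D. Named genes with any reads numbered 14406, 14049, 19375 and 19158. Between A and B, counts agreed within sampling noise (chi-square per degree of freedom 0.98 over 10425 genes). Between C and D they did not (1.08 over 12229 genes, chi-square p = 2.94e-10). Whether A and B are separate biological samples cannot be told from the reads, so an alternative sums A and B to 1 sample. If they are not separate, the p-values hold no spread between samples on that side. Summed germ cell markers stood at 8259 and 8394 CPM (reads scaled to the library total) in A and B, against 2614 and 2422 CPM in C and D, and 16 of the 20 fell. Of the 20, 18 stood in the highest of 4 equal bins of tested genes by mean, where 61.2% of all genes fell. Of the 64 markers in 7 somatic lists 57 were tested, 15 rose and 5 fell, where 26.9% of all tested genes rose and 18.8% fell. The somatic list sums ran from 1.27 to 1548 CPM in A and B and from 18.0 to 3205 in C and D. Defining somatic markers at 0 in both A and B included Hbb-bt of the erythroid list and Hsd3b6 of the Leydig list, and Nanos2 of the germ cell list was at 0 in D. Thy1 had 18, 15, 1 and 3 reads (log2 fold change -1.05, adjusted p = 0.156 in the authors' deposited table). Chemosensory receptor genes, 1546 in the table, took 0.00457% and 0.00469% of reads in A and B and 0.804% and 0.896% in C and D. The part of these marker and background reads in the results below was not tested. In these bulk samples fewer cells of a type and fewer reads per cell cannot be told apart, and with no matched RNA measurement neither can mRNA amount and translation.

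Promoters are shown first because members that moved together include known targets of cell cycle promoter elements. RefSeq promoters (build GRCm38.p6, 250 bases before to 50 after the start site) were matched for 31 of the 43 members. Ccnh, Wee1, Ccna2, Ccnd2 and Ccnd1 were called lower but had no matched promoter, so they were not searched and are outside the ranking below. Both strands were searched for the E2F core (GCGGGAA or GCGCGAA), for the cell cycle homology element (TTTGAA), which MuvB complexes bind, and for the CCAAT box (CCAAT), which NF-Y binds, and no match overlapped another. The 5 genes with the largest falls among members called lower whose promoter held an E2F core or a homology element were Cdc20 (chr4:118437294-118437593, minus strand), Aurka (chr2:172370521-172370820, minus strand), Ccnb2 (chr9:70421505-70421804, minus strand), Cdk1 (chr10:69352863-69353162, minus strand) and Plk1 (chr7:122159185-122159484, plus strand). E2f8 (chr7:48881547-48881846, minus strand) is set beside them as a gene called higher whose single window holds both elements. Of the other 2 genes called higher with a promoter, Rbl2 has no CCAAT box, and 1 of the 2 windows of E2f2 lacks the homology element. Each promoter runs 5′ to 3′ on the strand of its gene, and capitals mark matches on either strand.
Cdc20: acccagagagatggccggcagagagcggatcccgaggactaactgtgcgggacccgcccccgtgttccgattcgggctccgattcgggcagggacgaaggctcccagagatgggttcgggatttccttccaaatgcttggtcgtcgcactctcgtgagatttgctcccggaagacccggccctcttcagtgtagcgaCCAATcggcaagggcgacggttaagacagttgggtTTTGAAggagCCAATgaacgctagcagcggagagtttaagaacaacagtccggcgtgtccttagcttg
Aurka: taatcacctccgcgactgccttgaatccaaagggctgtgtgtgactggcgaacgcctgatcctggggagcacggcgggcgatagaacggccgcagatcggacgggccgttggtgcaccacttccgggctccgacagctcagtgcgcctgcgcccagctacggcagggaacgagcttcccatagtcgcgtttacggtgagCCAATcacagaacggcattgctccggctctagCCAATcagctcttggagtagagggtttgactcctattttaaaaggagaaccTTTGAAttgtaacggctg
Ccnb2: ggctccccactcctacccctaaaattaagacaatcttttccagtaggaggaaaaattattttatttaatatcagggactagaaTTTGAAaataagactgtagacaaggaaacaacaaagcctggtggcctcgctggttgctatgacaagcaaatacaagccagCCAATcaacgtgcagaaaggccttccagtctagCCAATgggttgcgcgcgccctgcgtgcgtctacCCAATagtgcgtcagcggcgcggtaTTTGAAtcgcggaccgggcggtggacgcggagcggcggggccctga
Cdk1: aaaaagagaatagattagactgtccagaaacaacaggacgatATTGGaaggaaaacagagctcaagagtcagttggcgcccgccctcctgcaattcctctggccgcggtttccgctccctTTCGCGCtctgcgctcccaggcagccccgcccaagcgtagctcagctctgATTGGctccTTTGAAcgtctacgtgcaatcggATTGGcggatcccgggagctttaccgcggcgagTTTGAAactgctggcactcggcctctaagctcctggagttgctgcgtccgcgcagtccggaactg
Plk1: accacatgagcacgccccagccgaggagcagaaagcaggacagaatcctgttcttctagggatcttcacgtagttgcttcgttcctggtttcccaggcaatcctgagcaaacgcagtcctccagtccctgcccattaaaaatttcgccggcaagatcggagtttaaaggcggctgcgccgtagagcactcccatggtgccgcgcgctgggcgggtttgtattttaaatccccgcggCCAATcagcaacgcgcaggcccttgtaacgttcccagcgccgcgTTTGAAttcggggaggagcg
E2f8: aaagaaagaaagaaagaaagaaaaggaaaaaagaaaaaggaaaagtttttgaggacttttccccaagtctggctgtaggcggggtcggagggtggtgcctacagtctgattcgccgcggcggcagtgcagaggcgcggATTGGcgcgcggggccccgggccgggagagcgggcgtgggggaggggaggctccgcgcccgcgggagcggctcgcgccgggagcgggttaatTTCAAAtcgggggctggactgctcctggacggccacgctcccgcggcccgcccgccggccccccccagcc

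All 6 windows held a homology element together with at least 1 CCAAT box, which the way they were picked largely set for the homology element. In Cdc20 the homology element began 18 bases before the start site, and CCAAT boxes began 53 and 8 bases before it. Cdk1 was alone among the 6 in holding an E2F core as well. The E2f8 window, picked for holding both elements, carried them on the opposite strand. Among members with a promoter, the pair was in 42.9% of those called lower, 2 of 3 called higher and 7.14% of those not called. It was in 7.97% of genes in the table and 7.37% of all genes called lower. Of the 14 members called lower with a promoter, 7 held a homology element (50.0%), as did 3 of 3 called higher and 2 of 14 not called (14.3%). The same element was found in 20.2% of the 27025 genes of the table and in 15.5% of all genes called lower. An E2F core was present in 9 of the 31 members (29.0%), against 6.86% of genes in the table, 10.8% of tested genes and 17.2% of genes called lower. Among members it was in 28.6% of those called lower and 35.7% of those not called. By window of the same length, 17.9% of 32851 promoters held a homology element, 37.4% a CCAAT box and 6.00% an E2F core. A match is a description of letters and not a bound site.

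Of the 43 members, 19 fell, 4 rose and 20 did not pass the test. Over all 17347 tested genes, 18.8% were called lower and 26.9% higher in the authors' deposited table. The median log2 fold change of the members was -0.58, against 0.38 over all tested genes. Activators made up 16 of the 19 falls. Among the 23 activators 16 fell, 1 rose (Myc) and 6 did not pass, with a median of -1.69. Among the 7 inhibitors 2 fell (Cdkn2a and Wee1) and none rose, with a median of 0.34. Among the 13 E2F, DP and pocket proteins 1 fell (E2f6), 3 rose (Rbl2, E2f2 and E2f8) and 9 did not pass, with a median of 0.10.

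The number of reads per gene moves with these calls. Tested genes were split by mean into 4 bins of equal size. In the highest bin (means of at least 27.2 normalised reads) 61.2% of genes were called lower and 11.7% higher in the authors' deposited table, with a median log2 fold change of -1.05. In the bin below it (at least 10.3 normalised reads) 13.3% were lower and 28.7% higher. Activators had a median mean of 54.6 normalised reads, inhibitors 11.7, and E2F, DP and pocket proteins 17.5. The highest bin held 19 members, of which 17 fell: 15 of 15 activators, 2 of 2 inhibitors and 0 of 2 pocket and E2F proteins. In the next bin, 2 of 19 members fell (Ccnb1 and E2f6) and 3 rose (Myc, Rbl2 and E2f8). The classes thus differ in read number as well as in calls, and the part of read number in that contrast was not tested. Deposited fold changes of genes with few reads also appear pulled towards 0, so class medians are not like for like. Spearman's rho between mean and log2 fold change was -0.78 over the 43 members and -0.50 over all tested genes, where all points share the same libraries and each gene's mean and fold change share its reads.

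**Figure D1:**
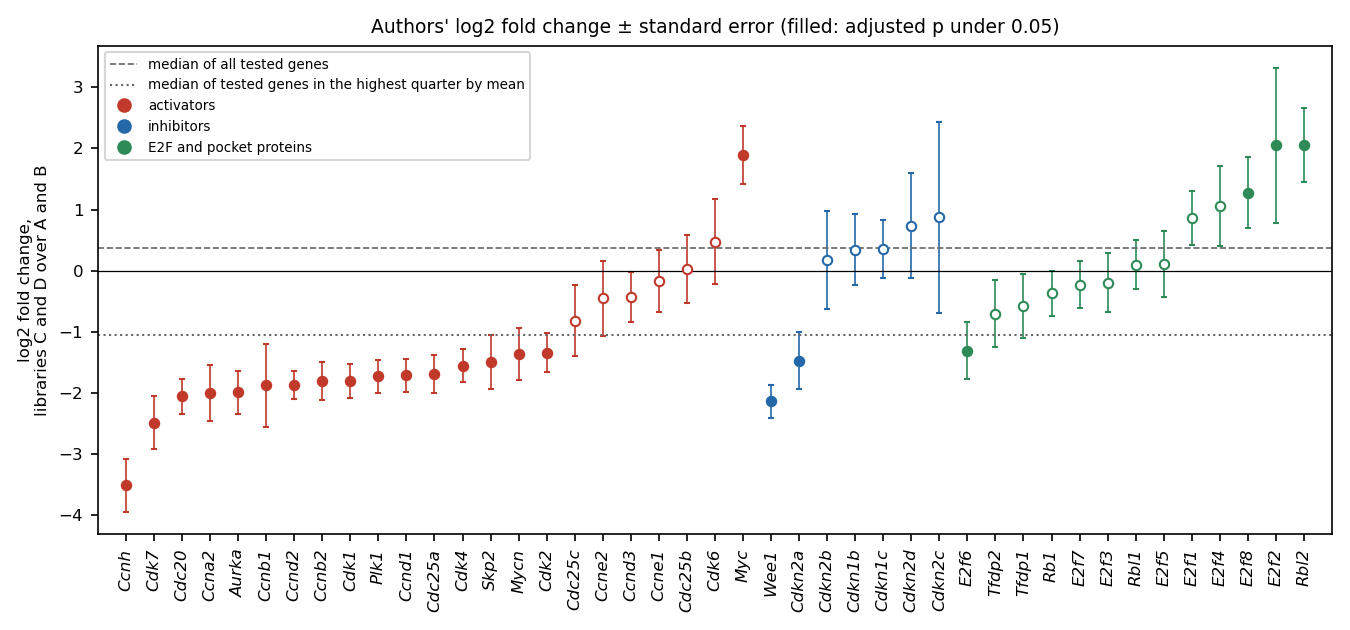
Log2 fold change of C and D over A and B for each member with its standard error, from the authors' deposited table, by class; filled points have an adjusted p under 0.05. The 16 filled activators below 0 reach from -1.34 (Cdk2) to -3.51 (Ccnh), while E2F and pocket proteins centre on 0.10; dashed and dotted lines mark the medians of all tested genes (0.38) and of those in the highest of 4 bins by mean (-1.05).

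**Figure D2:**
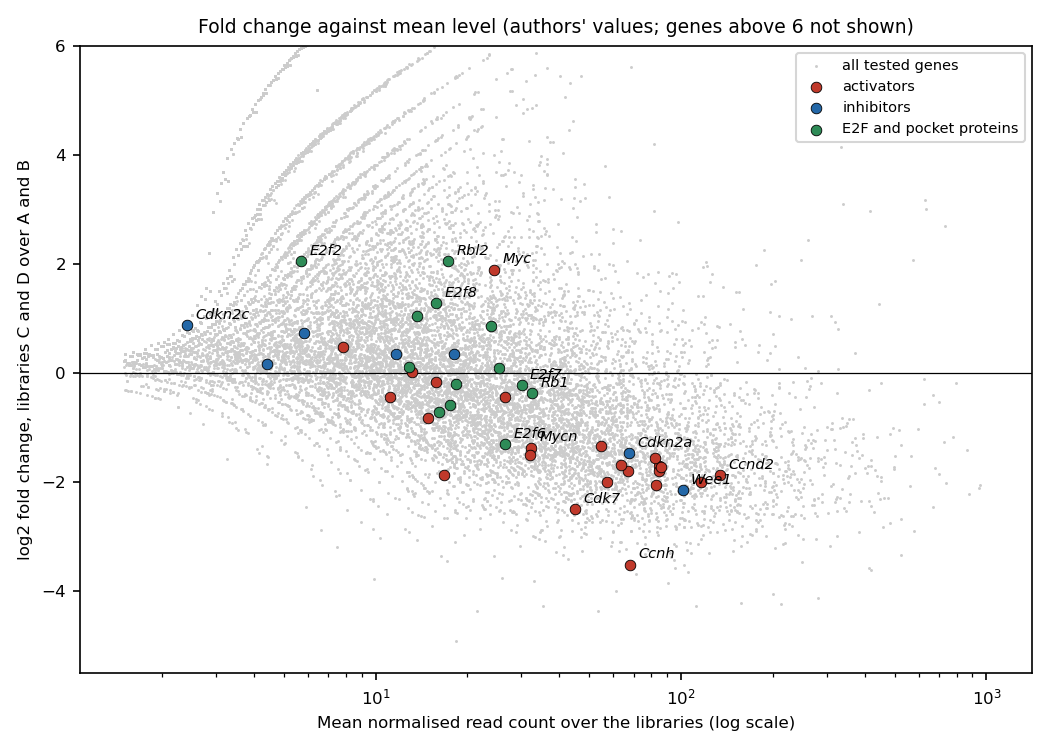
Log2 fold change against the mean normalised read count (log axis) for members, in colour, and all tested genes, in grey, from the authors' deposited table. Members to the right lie mostly below 0, as do other genes there, with Rb1 and E2f7 near 0 and Ccnh lowest at -3.51.

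D cyclins bind CDK4 and CDK6 and carry mitogen signals into G1. Ccnd1 had 136 and 126 normalised reads in A and B and 42.6 and 33.8 in C and D, and Ccnd2 had 205 and 217 against 42.6 and 72.8. Both fell, with log2 fold changes of -1.71 ± 0.27 and -1.87 ± 0.23 (SE, adjusted p = 1.34e-09 and 1.93e-15 in the authors' deposited table). Ccnd3 had 33.2 and 29.7 against 26.7 and 16.9 and did not pass (-0.43, adjusted p = 0.330). Shares of reads within a family do not depend on any scaling factor. They can still follow read number. C and D lay above A and B in 3547 and 3071 of 4337 tested genes in the lowest and second-lowest bins by mean. In the highest bin they lay below in 3230 of 4337. The part of read number in any share given here was not tested. Ccnd3 took 8.88% and 7.97% of D cyclin reads in A and B, and 23.8% (95% Wilson interval 16.0 to 33.9) and 13.7% (7.61 to 23.4) in C and D. The interval of C lay above both A and B, and that of D overlapped theirs. Intervals cover counting error only.

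E cyclins activate CDK2 at the G1/S boundary. Ccne1 had 18.6 and 15.6 normalised reads in A and B and 18.7 and 10.2 in C and D, so that its sides overlapped. Ccne2 had 13.4 and 14.1 against 12 and 5.08. Neither passed the test (log2 fold changes -0.17 and -0.45, adjusted p = 0.764 and 0.455 in the authors' deposited table). Ccne1 held 58.2% and 52.4% of E cyclin reads in A and B and 60.9% and 66.7% in C and D, with 23 and 9 reads of the pair in the last 2 libraries.

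All 3 A and B cyclins, the partners of CDK2 and CDK1 in S phase and mitosis, fell. Ccna2 had 189 and 192 normalised reads in A and B and 58.6 and 27.1 in C and D (log2 fold change -1.99 ± 0.46, SE, adjusted p = 2.46e-05 in the authors' deposited table). C was more than 2-fold above D, yet both lay far below A and B. Ccnb2 had 108 and 103 against 30.7 and 27.1 (-1.80, adjusted p = 1.82e-08). Ccnb1 rested on few reads, 51 and 35 in A and B and 3 and 5 in C and D (-1.87 ± 0.68, adjusted p = 5.07e-03), and without library C it stood at -1.57 in limma and no longer passed (adjusted p = 0.0596). Within the B cyclins Ccnb1 held 21.5%, 19.3%, 11.5% and 23.8% of reads in A to D, and the intervals of all 4 overlapped.

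Cdk1, the mitotic kinase, had 137 and 129 normalised reads in A and B and 46.6 and 25.4 in C and D. Cdk2, the S phase kinase, had 78.5 and 79.9 against 29.3 and 30.5. Cdk4 had 122 and 124 against 34.7 and 47.4. These 3 kinases fell by 1.80, 1.34 and 1.55 on the log2 scale in the authors' deposited table (adjusted p = 5.02e-10, 8.43e-05 and 3.81e-08). Cdk6, the paralogue of Cdk4, did not pass at 10, 8, 6 and 7 reads (0.47, adjusted p = 0.450). Cdk6 took 4.55% and 4.37% of the reads of the pair in A and B and 18.8% (8.89 to 35.3) and 20.0% (10.0 to 35.9) in C and D, with both intervals of C and D above the highest of A and B (8.39). Cdk6 stood in the second-lowest bin by mean and Cdk4 in the highest.

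The CDK-activating kinase phosphorylates the activation loop of cell cycle CDKs and is also part of the transcription factor TFIIH. Both of its subunits among the members fell. Ccnh, its cyclin subunit, had 124 and 128 normalised reads in A and B and 14.7 and 5.08 in C and D. Its log2 fold change of -3.51 ± 0.43 (SE, adjusted p = 5.33e-15 in the authors' deposited table) was the lowest of the 43, on 11 and 3 reads in C and D. Cdk7, the catalytic subunit, had 87.3 and 66.5 against 10.7 and 15.2 (-2.49 ± 0.43, adjusted p = 3.65e-08). Mean reads of A and B over those of C and D were 12.8-fold for Ccnh and 5.94-fold for Cdk7. Mnat1, the assembly factor of the complex and no member, had 27.9 and 33.2 against 12 and 6.77 and fell (-1.45 ± 0.56, adjusted p = 0.0112 in the authors' deposited table). The other 14 activators that fell lay between -1.34 (Cdk2) and -2.05 (Cdc20).

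CDC25 phosphatases remove the inhibitory phosphates that WEE1 puts on CDKs. Cdc25a had 96.6 and 99.7 normalised reads in A and B and 29.3 and 28.8 in C and D and fell (-1.69, adjusted p = 2.02e-07 in the authors' deposited table). Cdc25b had 12.2 and 13.4 against 6.66 and 20.3, with C below and D above both other libraries, and did not pass (0.02, adjusted p = 0.971). Cdc25c had 20.9 and 19.1 against 9.33 and 10.2. Its sides did not overlap, but it did not pass either (-0.81, adjusted p = 0.155). Over the limma alternatives it ran from -1.10 to -0.42 and passed as lower in some. Wee1 itself, the opposing kinase, had 143 and 190.2 against 38.7 and 33.8. It fell by 2.14 ± 0.27 (SE, adjusted p = 5.09e-14 in the authors' deposited table), so that the kinase and the phosphatase Cdc25a were both lower in C and D.

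The mitotic kinases Plk1 and Aurka and the ubiquitin ligase receptors Cdc20 and Skp2 all fell. Plk1, which drives mitotic entry and spindle assembly, had 124 and 142 normalised reads in A and B and 40.0 and 37.2 in C and D. Aurka, which matures centrosomes, had 91.3 and 91.9 against 14.7 and 30.5. Cdc20, the activator of the anaphase-promoting complex in mitosis, had 131 and 137 against 33.3 and 28.8. Skp2, which targets p27 for degradation, had 46.0 and 50.9 against 14.7 and 16.9. In none of the 4 did the sides overlap. All 4 stood in the highest bin by mean, where 61.2% of tested genes were called lower. C and D lay below A and B in 3230 of the 4337 genes there. Their log2 fold changes in the authors' deposited table were -1.73, -1.99, -2.05 and -1.49 (adjusted p = 8.64e-10, 4.98e-08, 6.14e-12 and 1.07e-03).

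**Figure D3:**
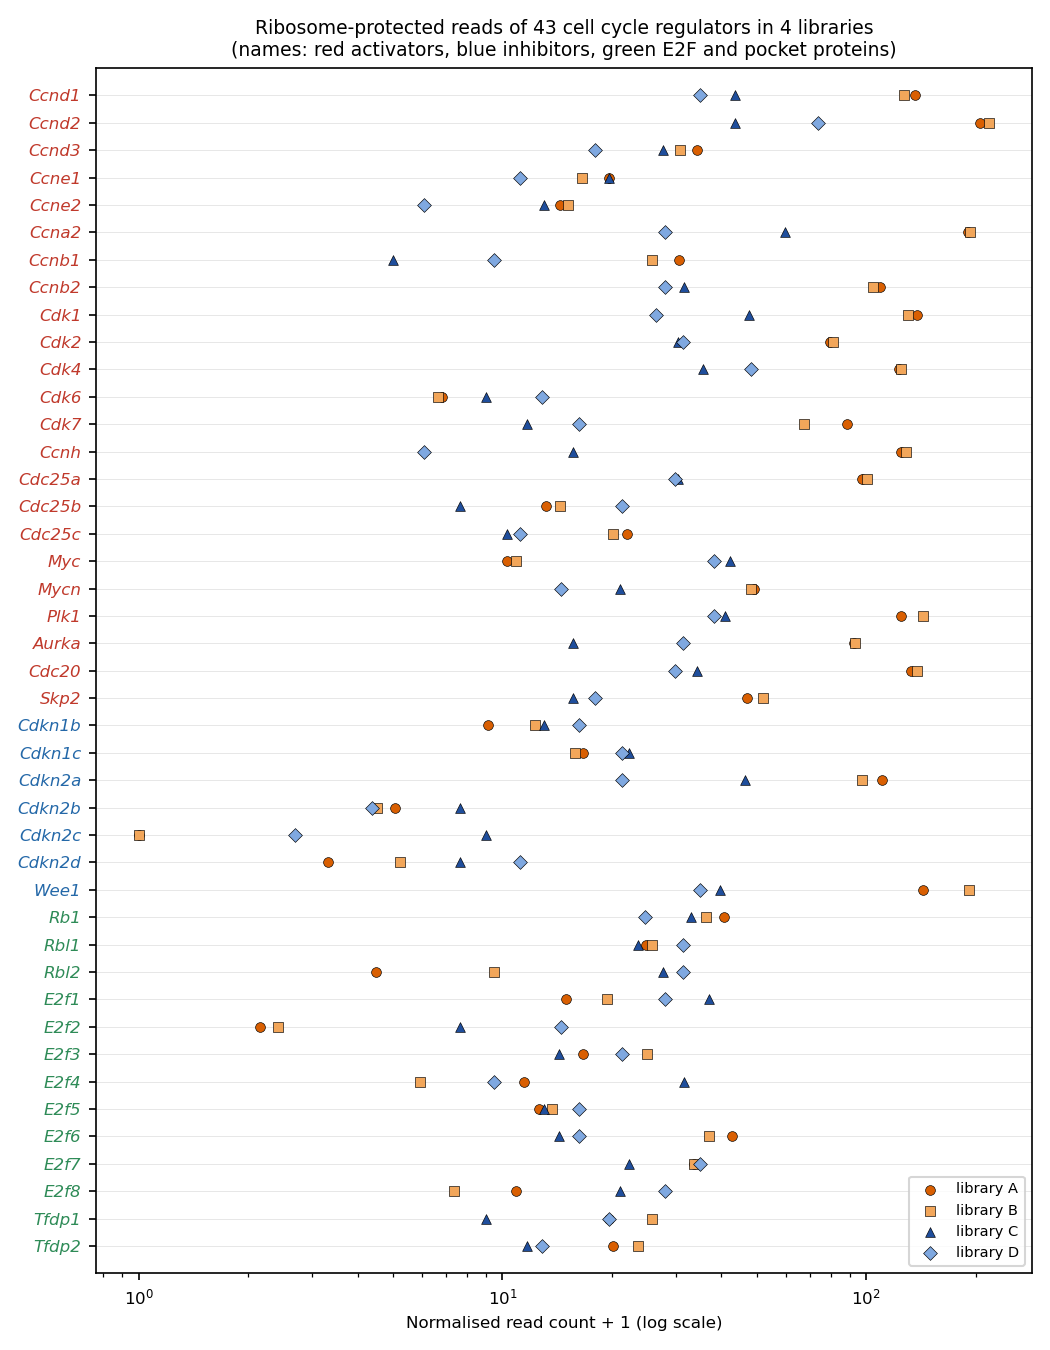
Normalised reads plus 1 (log axis) of each member in libraries A to D, with reads recovered from the authors' mean values and divided by the authors' size factors. A and B lie close together for most genes, C and D lie to their left for Ccnh (14.7 and 5.08 against 124 and 128) and to their right for Myc (41.3 and 37.2 against 9.31 and 9.90).

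Myc and Mycn, paralogous transcription factors that promote growth and cell cycle entry, moved in opposite directions. Myc had 9.31 and 9.90 normalised reads in A and B and 41.3 and 37.2 in C and D. It rose, at 1.89 ± 0.47 (SE, log2, adjusted p = 9.57e-05 in the authors' deposited table). Mycn had 48.3 and 47.4 against 20.0 and 13.5 and fell (-1.36 ± 0.42, adjusted p = 2.29e-03). Myc made up 16.2% (10.2 to 24.7) and 17.3% (10.6 to 26.9) of the reads of the pair in A and B, and 67.4% (53.0 to 79.1) and 73.3% (55.6 to 85.8) in C and D. The share of Myc was higher in C and D, on 46 and 30 reads of the pair there, and the intervals of the 2 sides did not overlap.

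The CIP/KIP proteins p27 (Cdkn1b) and p57 (Cdkn1c) bind and block cyclin-CDK complexes. Cdkn1b had 8.15 and 11.3 normalised reads in A and B and 12 and 15.2 in C and D, and Cdkn1c had 15.7 and 14.8 against 21.3 and 20.3. In both genes C and D lay above A and B, but neither passed (log2 fold changes 0.34 and 0.36, adjusted p = 0.557 and 0.479 in the authors' deposited table). Both were close to the median of all tested genes.

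INK4 proteins block CDK4 and CDK6. Cdkn2a, which encodes p16 and, in another frame, the p53 regulator ARF, had 109 and 96.2 normalised reads in A and B and 45.3 and 20.3 in C and D. It fell (-1.47 ± 0.47, SE, adjusted p = 2.46e-03 in the authors' deposited table), and reads per gene do not separate its 2 products. Cdkn2b had 7, 5, 5 and 2 reads and Cdkn2d 4, 6, 5 and 6, and neither passed (0.17 and 0.74, adjusted p = 0.792 and 0.270). Cdkn2d ran from 0.95 to 1.92 over the limma alternatives and passed as higher in some of them. Cdkn2c had 0 reads in both A and B, then 6 in C and 1 in D, which is too few for a fold (adjusted p = 0.0613). Cdkn2a held 94.5% (90.4 to 96.9) and 92.5% (87.1 to 95.8) of INK4 reads in A and B and 68.0% (54.2 to 79.2) and 57.1% (36.5 to 75.5) in C and D. Its share was lower in C and D beyond counting error. Cdkn2a stood in the highest bin by mean, though, and the other INK4 genes in the lowest and second-lowest bins. The part of read number in this share was not tested.

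Pocket proteins divided among themselves. Rb1 had 39.6 and 35.4 normalised reads in A and B and 32.0 and 23.7 in C and D and did not pass (-0.37 ± 0.37, SE, adjusted p = 0.370 in the authors' deposited table). Rbl1, which encodes p107, had 23.9 and 24.7 against 22.7 and 30.5 and overlapped between sides (0.10, adjusted p = 0.840). Rbl2, which encodes p130, the pocket protein most tied to quiescent cells, had 3.49 and 8.49 against 26.7 and 30.5. It rose, at 2.05 ± 0.61 (adjusted p = 6.68e-04). Rbl2 took 5.22% (2.41 to 10.9) and 12.4% (7.22 to 20.4) of pocket protein reads in A and B and 32.8% (22.3 to 45.3) and 36.0% (24.1 to 49.9) in C and D, with no overlap of the intervals. The share of Rb1 was 59.1% and 51.5% in A and B and 39.3% and 28.0% in C and D, and that of Rbl1 lay between 27.9% and 36.1% in all 4 libraries.

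E2F1 to E2F3 activate S phase genes. E2f1 had 14.0 and 18.4 normalised reads in A and B and 36.0 and 27.1 in C and D. Its sides did not overlap, but it missed the threshold (0.86 ± 0.44, SE, adjusted p = 0.0650 in the authors' deposited table), and it passed in 9 of 11 limma alternatives. E2f2 rose on 2, 2, 5 and 8 reads (2.05 ± 1.27, adjusted p = 0.0326), the largest standard error among the called members. It stood in the second-lowest bin by mean, where 1934 of 4337 tested genes were called higher and 27 lower. E2f3 had 15.7 and 24.0 against 13.3 and 20.3, overlapped and did not pass (-0.20, adjusted p = 0.713). E2f2 took 3.77% and 3.23% of the reads of the 3 genes in A and B and 11.9% (5.19 to 25.0) and 22.2% (11.7 to 38.1) in C and D. The intervals of A and B reach 12.8 and 11.0, so that of C overlaps both and that of D overlaps that of A.

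E2F4 to E2F6 act mainly as repressors, E2F4 and E2F5 with pocket proteins and E2F6 without them. E2f6 had 41.9 and 36.1 normalised reads in A and B and 13.3 and 15.2 in C and D and was the lone member of its class to fall (-1.30 ± 0.47, SE, adjusted p = 7.42e-03 in the authors' deposited table). E2f4 spread widely within each side, with 10.5 and 4.95 in A and B and 30.7 and 8.46 in C and D, and did not pass (1.05, adjusted p = 0.0897). In limma it stood at 0.24 without library C (adjusted p = 0.819) and at 1.99 without library D (adjusted p = 8.38e-06), and it passed in 8 of 11 limma alternatives. E2f5 had 11.6 and 12.7 against 12 and 15.2 and overlapped (0.11, adjusted p = 0.856).

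E2F7 and E2F8 are atypical E2Fs that bind DNA without a DP partner and repress E2F targets late in S phase. E2f7 had 32.6 and 32.5 normalised reads in A and B and 21.3 and 33.8 in C and D, overlapped and did not pass (-0.23, adjusted p = 0.603 in the authors' deposited table). E2f8 had 9.89 and 6.36 against 20.0 and 27.1 and rose (1.28 ± 0.58, SE, adjusted p = 0.0254). The DP proteins, which pair with E2F1 to E2F6 on DNA, did not pass. Tfdp1 had 18.6 and 24.7 against 8.0 and 18.6, with D at the value of A, and Tfdp2 had 19.2 and 22.6 against 10.7 and 11.8 (-0.58 and -0.70, adjusted p = 0.277 and 0.199).

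Among genes with like read numbers some passed the test and some did not. Rb1 and E2f7 had means of 32.6 and 30.1 normalised reads and did not pass, at log2 fold changes below 0, whereas Mycn and Skp2, with means of 32.3 and 32.1, fell. Ccnb1 fell at a mean of 16.7 and Rbl2 rose at a mean of 17.3. These genes were picked after their values were seen, and no test of the differences between them was run.

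C and D lay below A and B in 25 of the 43 members and above them in 10, and the sides overlapped in 8. Over tested genes C and D lay below in 30.8% and above in 53.9%. Within classes, 19 of 23 activators had C and D below, against 4 of 13 E2F, DP and pocket proteins and 2 of 7 inhibitors. In the highest bin by mean, C and D lay below in 3230 of 4337 tested genes. That bin held 15 of the activators, 2 of the E2F, DP and pocket proteins and 2 of the inhibitors. The part of read number in this contrast was not tested. C and D differed by more than 2-fold from each other in 11 members, and A and B did so in 2. Cdkn2a (45.3 and 20.3 normalised reads) and Aurka (14.7 and 30.5) show that neither C nor D was consistently the higher. For members with 10 or more reads, chi-square per degree of freedom was 0.92 between A and B over 41 genes and 1.59 between C and D over 40 genes.

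As a share of all reads in a library, members took 0.437% in both A and B and 0.260% and 0.25% in C and D. Activators accounted for 78.1% (76.8 to 79.3, 95% Wilson interval) and 76.5% (75.1 to 77.9) of member reads in A and B and for 60.1% (56.5 to 63.5) and 59.5% (55.4 to 63.5) in C and D. E2F, DP and pocket proteins accounted for 10.1% (9.24 to 11.1) and 10.3% (9.38 to 11.4) against 25.8% (22.8 to 29.1) and 29.3% (25.7 to 33.2). Inhibitors held 11.8% and 13.1% against 14.1% and 11.2%. The activator and E2F shares moved beyond counting error in both C and D, and the inhibitor share did not. The classes also differ in reads per gene, and the part of read number in these shares was not tested. An exact permutation test of 2 libraries against 2 cannot pass 0.05, so no p is given for these shares.

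**Figure D4:**
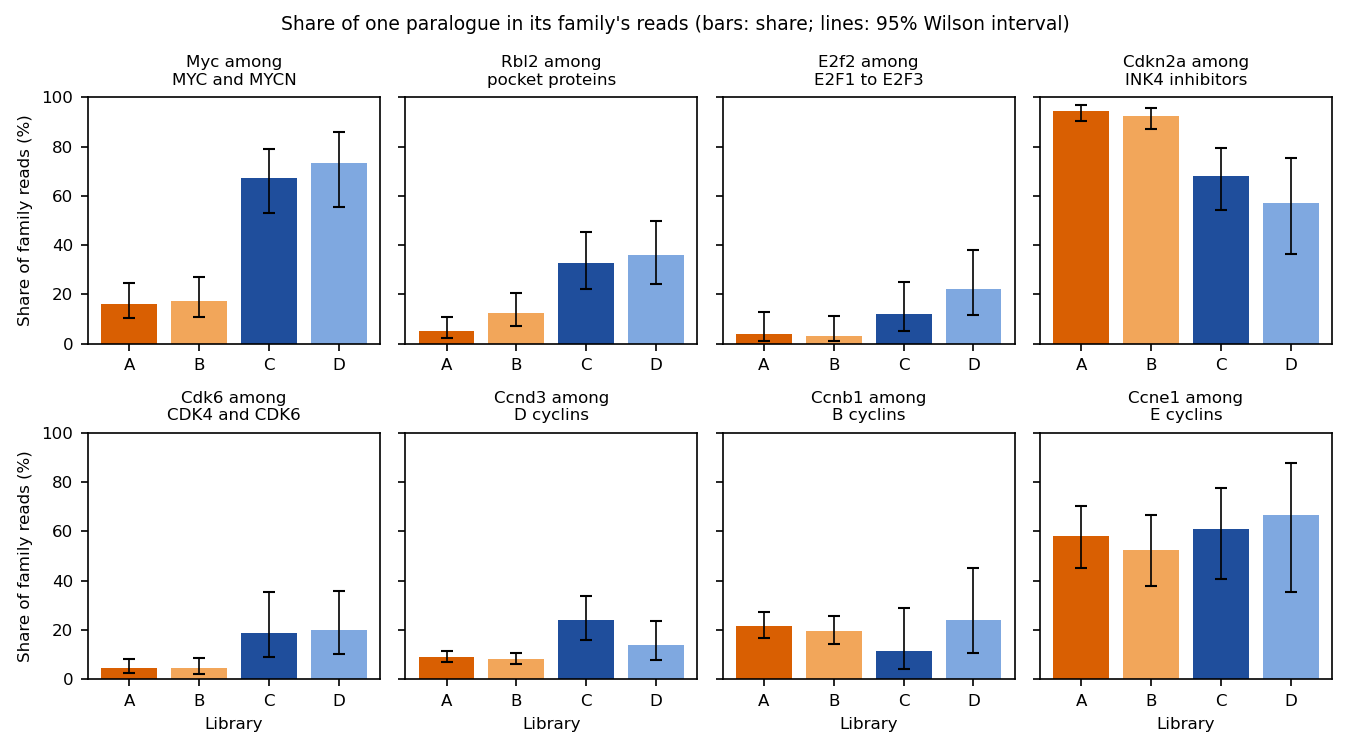
Share of reads of 1 paralogue within its family in libraries A to D (bars from 0, in percent), with 95% Wilson intervals. Myc among Myc and Mycn rises from 16.2% and 17.3% to 67.4% and 73.3%, and Rbl2 among pocket proteins from 5.22% and 12.4% to 32.8% and 36.0%, while Ccnb1 and Ccne1 show overlapping intervals.

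Other genes of the same pathways were counted from 7 lists of 84 genes, of which 81 were tested. Of these 37 fell and 4 rose, and the median over the lists was -0.60 on the log2 scale. Over all tested genes 18.8% fell and 26.9% rose, and 39 of the list genes stood in the highest bin by mean, where 61.2% of all genes fell. Of the 18 subunits and regulators of the anaphase-promoting complex, which degrades cyclin B and securin, 17 were tested, 11 fell and none rose, with 11 in the highest bin. Anapc4 was at -2.42, Anapc2 at -1.75 and Anapc1 at -1.53 in the authors' deposited table. Of the 9 SCF ubiquitin ligase genes, the complex that uses Skp2, 8 were tested, 6 fell and none rose, with 5 in the highest bin. The smallest p-values were those of Skp1 (-2.47), Cul1 (-2.11) and Ccnf (-1.66). Cdc20 and Skp2, which fell as well, are substrate receptors of these complexes.

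Among 15 other mitotic and checkpoint kinases 14 were tested, 10 fell and none rose, with 10 in the highest bin. The checkpoint kinases Ttk and Bub1 were at -2.55 and -2.47 in the authors' deposited table, and the DNA damage kinase Atr at -2.11. Of 12 other cyclins 3 fell, Ccnl2 (-1.48), Ccnl1 (-1.28) and Ccnk (-1.05), which act in transcription and splicing, and 9 did not pass. Of 14 other CDKs and CDK partners 5 fell and 2 rose. The cyclin list and the CDK list each had 5 genes in the highest bin, where 61.2% of all genes fell. Over all tested genes 18.8% fell and 26.9% rose. The transcription kinases Cdk11b, Cdk9 and Cdk12 were at -1.23, -1.22 and -0.73, and Cdk16 and Cdk14 rose, both at 1.19.

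The MuvB and DREAM complexes repress cell cycle genes with p130 and E2F4 in quiescence and activate them with B-MYB in mitosis. Of their 8 other genes, 1 fell, 1 rose and 6 did not pass, with 2 in the highest bin by mean. Over all tested genes 18.8% fell and 26.9% rose. Rbbp4, which encodes a histone-binding protein shared with other chromatin complexes, fell (-2.39), and Mybl1, a germ cell MYB factor, rose on 4, 4, 7 and 11 reads (1.88, adjusted p = 0.0205 in the authors' deposited table). Mybl1 stood in the second-lowest bin by mean, where 1934 of 4337 tested genes were called higher. Lin37 was at -1.01 (adjusted p = 0.0851). Of 8 other genes of the MYC and MAX network, Mga fell (-1.25) and Mnt, a MAX-binding repressor, rose (1.24, adjusted p = 0.0160). The other 6 did not pass, Mxi1 among them at 0.43, and 1 of the 8 stood in the highest bin.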

How the data were processed

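Low-input ribosome profiling was measured in 4 samples of about 1000 cells, with fragments of 26 to 34 nucleotides, per the labels' protocols. The submitters' processing notes name Trimmomatic 0.39, STAR 2.7.5c, StringTie 2.1.7, DESeq2, edgeR and build mm10; the sources used here give neither their roles nor how reads matching several places were counted. The deposited table holds 22397 rows. Its mean is a signal in reads divided by size factors, averaged over libraries, per the file headers and its values. Fold changes and standard errors were deposited by the authors on the log2 scale, with shrinkage not stated. Values of genes with few reads appear pulled towards 0: a gene with 1 read in C alone has 0.12. E2f2 has 2.05, where its mean normalised reads differ 7.84-fold. Cdkn2c has 0.87, with 0 reads in A and B against a mean of 4.84 normalised reads in C and D. The authors' p-value of E2f2 (0.0133) is smaller than 2.05 ± 1.27 alone would give. Printed fold changes and p-values may thus not come from 1 estimate. The p-value and adjusted p-value are the authors' as deposited, within 6.29e-06 of a Benjamini-Hochberg adjustment. A row without a name (0.00475% of summed means) was left out. Symbols of 21734 genes, and all 43 members, matched RefSeq.

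Because the table has no column per sample, the authors' test was the main result (adjusted p under 0.05). Whole reads were recovered from the means: 20513 of 20515 rows (99.99%) had 1 whole-number solution at a relative tolerance of 8e-15, and 0 of 500 values moved by 1e-09 had one. Median-of-ratios factors computed on these reads matched the recovered steps within 0.0187%. Genes with reads in 1 library alone gave, by the sign of their fold change, the side of that library. The recovery and the fits were tested on simulated data. As alternatives, limma 3.58.1 (voom, R 4.3.3) was fitted on recovered reads of all genes with at least 10 reads, with other scalings, filters and libraries left out. Lists, the 3 classes and the promoter motifs were chosen with earlier results of these data known. All 43 members are named, with up to 3 genes of the smallest p per pathway list; Cdk16, Cdk14 and Mnat1 were named after their values were seen. No protein or transcript lengths were used here, so levels are not compared between genes. Wilson intervals are at 95%. Other samples' columns numbered 0.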

Additional observations from a re-analysis of the deposited data

How the results depend on the processing

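The 19 falls numbered 18 to 22 under every alternative run, and 18 of the 19 genes kept their call in each; the exception was Ccnb1 without library C. All 4 genes called higher kept their call in every limma fit that held them, although at an adjusted p under 0.01 only 2 were called, Myc and Rbl2. More members were called higher in limma: 7 with the authors' size factors, 7 with A and B summed, 8 without a filter, 10 with upper-quartile factors and 11 with library totals; the rest gave 4 to 6. Library totals and upper-quartile factors moved the median of all genes by 0.55 and 0.46, and TMM by -0.14, relative to the authors' factors. The activator median was -1.17 and -1.26 under the first 2, the E2F, DP and pocket median 0.66 and 0.57, and the inhibitor median 1.01 and 0.92; with 50 or more reads, which drops most inhibitors, the last was -1.67. Over all genes, calls of higher went from 4663 to 2791 at 0.01, 7266 with totals, 7014 with upper quartiles, 11262 without a filter and 1548 with 50 or more reads. Genes that had not passed turned sign. With library totals Ccnd3 was at 0.054, Ccne1 at 0.34, Rb1 at 0.15, E2f3 at 0.34 and E2f7 at 0.26. With upper-quartile factors Ccne1 was at 0.25, Rb1 at 0.066, E2f3 at 0.25 and E2f7 at 0.17. Cdc25b was at -0.16 with the authors' factors and without a filter, -0.29 with TMM, -0.19 with 50 or more reads and -0.11 with A and B summed, and Rbl1 at -0.022 with TMM. Leaving out each library in turn gave ranges of -0.83 to 0.70 for Cdc25b, -0.67 to 0.14 for Ccne1, -0.075 to 0.35 for Rbl1, -0.52 to 0.13 for E2f3 and -0.58 to 0.077 for E2f7. The cause was not tested for any of these, other than the scaling itself. No paired analysis was possible because no recovered library can be tied to a replicate number of the labels.

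Members had 7 to 734 reads over the 4 libraries (median 111), and C and D together hold fewer reads than B, so a gene with few reads, such as Cdkn2c, gives no fold at this depth. With A left without B, or C without D, the lone library is assumed to vary like the other side.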

Other observations

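Reads of each class were also set against the reads of the 20 germ cell markers, a ratio chosen after values were seen. Per 100 germ cell marker reads, activators had 41.3 and 39.8 reads in A and B and 59.6 and 61.5 in C and D. E2F, DP and pocket proteins had 5.35 and 5.39 against 25.6 and 30.3. Inhibitors had 6.24 and 6.83 against 14.0 and 11.5. By this ratio C and D were above A and B in all 3 classes, whereas activators took a smaller share of all reads in C and D. The direction for activators and inhibitors depends on the markers summed, whose log2 fold changes ran from -3.61 (Dazl) to -0.44 (Sall4). Activators had 3209 and 2640 reads in A and B and 442 and 331 in C and D. Inhibitors had 485 and 453 against 104 and 62. Sall4 had 329 and 240 against 118 and 60, so relative to Sall4 alone both classes were lower in C and D. Relative to Dazl (1246 and 1164 against 49 and 35) both were higher. No test was run on these ratios.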
